A study of Mus musculus with 9 samples.

Results

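Dyrk1a, Vps26c, Klhl22 and Klf13 had no count in any Arf1-deficient N2a library, and Ttc3, Pigp, Hlcs and Morc3 lie beside Dyrk1a on mouse chromosome 16. These 8 genes were taken from 21899 in the deposited table. The 4 genes without counts were chosen by their values in the comparison of Arf1-deficient with control cells, so those values are a description and were not tested. The other 4 were chosen by position. N2a (Neuro-2a) is a mouse neuroblastoma line, labelled as neuroblasts from brain. All 9 libraries are labelled as this line, with 3 libraries in each of 3 groups: shlucif, a hairpin against luciferase that serves as the control, and the hairpins shArf1-1 and shArf1-2, which target Arf1 and together form the Arf1-deficient cells. The genotype label is luciferase knockdown for the control and Arf1 knockdown for both Arf1 hairpins, and the treatment label is no for all. The shlucif libraries also held counts of macrophage markers, which the labels do not mention. Their summed level was close to that of neuroblastoma markers, but most of it came from Spp1. The question of the series was how Arf1, a small GTPase of membrane traffic, acts on lipid metabolism. Nothing in the labels says that libraries of a group came from separate cultures, so p-values measure the spread between these samples, which may be technical.

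DYRK1A is a protein kinase whose gene dose matters for brain development, and its human gene lies in the region that is triplicated in Down syndrome. VPS26C belongs to the retriever, which works with the Commander complex to return membrane proteins from endosomes to the cell surface. KLHL22 is a substrate adaptor of the CUL3 ubiquitin ligase and acts on GATOR1, a brake on mTORC1. KLF13 is a zinc finger factor that binds GC-rich promoter elements. Among the neighbours, TTC3 is a ubiquitin ligase that acts on AKT, PIGP is a subunit of the enzyme that starts GPI anchor synthesis, HLCS attaches biotin to carboxylases, and MORC3 is a nuclear ATPase that binds chromatin.

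Total counts lay between 13381570 and 13786986 in the shlucif libraries, between 11182479 and 15594615 with shArf1-1 and between 13463280 and 14659400 with shArf1-2. Arf1 itself (ENSMUSG00000048076), the target, had 9446, 8840 and 9333 counts in the shlucif libraries. It had 3406, 2982 and 4137 counts with shArf1-1 and 5073, 4420 and 5054 with shArf1-2. All 6 Arf1-deficient libraries were below all 3 shlucif libraries in FPKM, which is counts scaled by gene length and by the library total, so the knockdown labels and the level of the target go together. The log2 fold change of Arf1, Arf1-deficient minus shlucif, was -1.21 ± 0.09 (SE, n = 6 and 3) with a Benjamini-Hochberg adjusted p of 6.05e-08 from the edgeR quasi-likelihood test.

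The sequences that the hairpins target, from the study's table of oligos, are shown because they fix where the knockdown acts. Both were found whole in the coding part of Arf1 on the minus strand of chromosome 11, shArf1-1 in exon 3 of 5 at chr11:59213222-59213242 and shArf1-2 in exon 2 at chr11:59213386-59213406 (GRCm38).
shArf1-1: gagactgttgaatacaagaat
shArf1-2: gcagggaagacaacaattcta
In the annotated transcripts of the 8 genes, the longest run shared with either 21-base target was 10 bases, in Ttc3. For Dyrk1a it was 9 bases with shArf1-1 and 8 with shArf1-2. For Vps26c, Klhl22 and Klf13 no run was longer than 8 bases.

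Dyrk1a (ENSMUSG00000022897, chr16:94570010-94695517, plus strand) had 81, 69 and 48 counts in the shlucif libraries and 0 in each of the 6 Arf1-deficient libraries. Its FPKM in the shlucif libraries was 0.712, 0.625 and 0.427, a mean of 0.588 ± 0.146 (SD, n = 3). The gene was thus read at a low level in every control library and in no other library. Of all tested genes, 9.60% had a lower mean FPKM in shlucif. Against a floor of 3 counts per library, Dyrk1a was at least 21.7-fold lower in Arf1-deficient cells, as a ratio of counts scaled by the library totals. Floors and intervals cover counting error only.

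Vps26c (ENSMUSG00000022898, chr16:94497783-94526830, minus strand), the retriever subunit, had 51, 52 and 58 counts in the shlucif libraries and 0 in each Arf1-deficient library. Its mean level in shlucif was 1.07 ± 0.0770 FPKM (SD, n = 3), above that of Dyrk1a, and 15.4% of tested genes had a lower mean FPKM. The control libraries lay close together for this gene. The bound on its fold was at least 17.7-fold lower, the smallest of the 4 genes. All 4 genes share the same floor. The order of their bounds is thus that of their scaled shlucif counts and not of the size of the loss.

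Klhl22 (ENSMUSG00000022750, chr16:17759618-17793382, plus strand), the CUL3 adaptor, had 98, 99 and 79 counts in the shlucif libraries and 0 in all 6 others. Its mean level in shlucif was 1.29 ± 0.163 FPKM (SD, n = 3), higher than 17.7% of tested genes. It lies on the same chromosome as Dyrk1a but far from it. The bound was at least 30.3-fold lower, the largest of the 4 genes.

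Klf13 (ENSMUSG00000052040, chr7:63886351-63938915, minus strand), the GC-box factor, had 80, 71 and 77 counts in the shlucif libraries and 0 in all 6 others. Its mean level in shlucif was 0.742 ± 0.0338 FPKM (SD, n = 3), higher than 11.5% of tested genes. The bound was at least 25.0-fold lower. By mean FPKM in shlucif the order was Klhl22, Vps26c, Klf13 and Dyrk1a. The shlucif libraries of Klhl22 overlapped those of Vps26c, and those of Klf13 overlapped those of Dyrk1a, while all of Vps26c lay above all of Klf13. The 4 genes together had 310, 291 and 262 counts in the shlucif libraries, and 0 counts among the 81575786 of the 6 Arf1-deficient libraries.

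**Figure D1:**
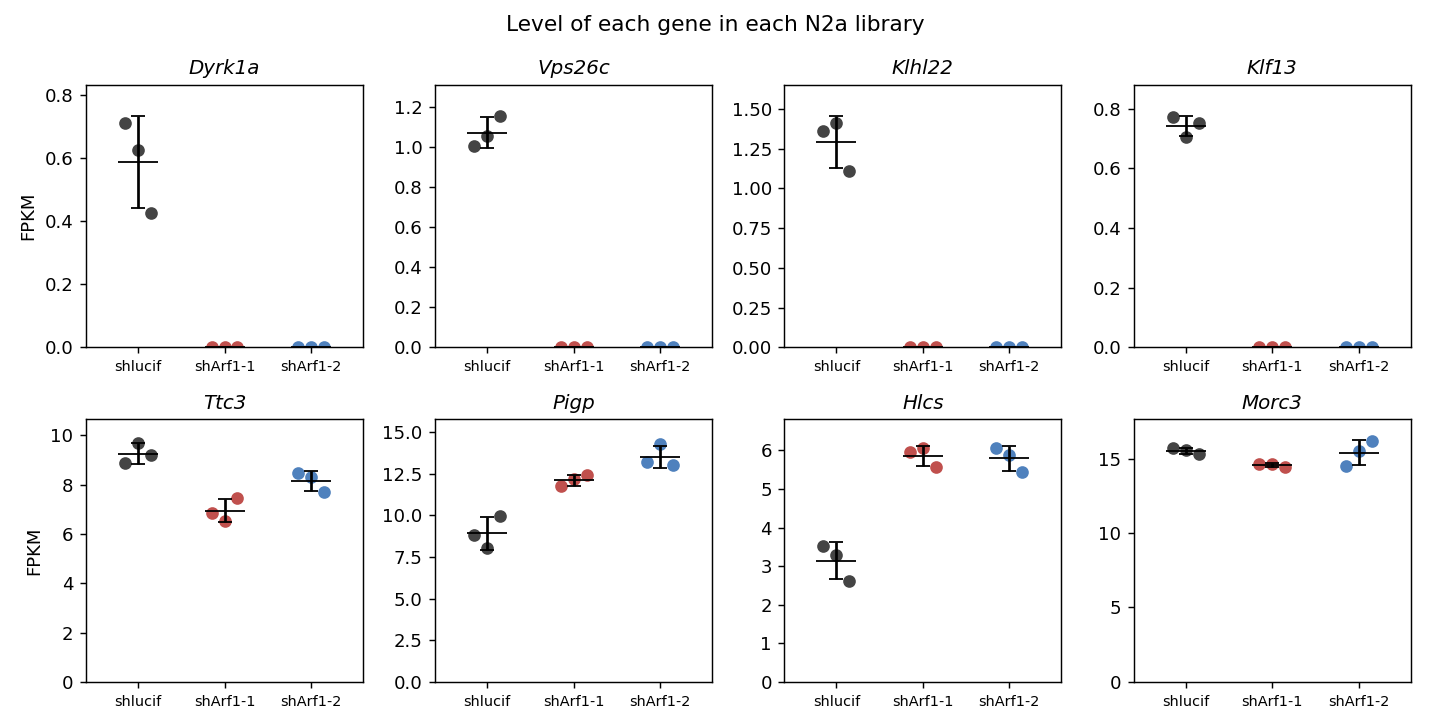
FPKM of each gene in each library, with 1 point for each library and bars for the mean ± SD of 3 libraries; each panel has its own vertical axis from 0. Dyrk1a, Vps26c, Klhl22 and Klf13 are at 0 in all 6 Arf1-deficient libraries, Hlcs and Pigp are higher there than in all 3 shlucif libraries, and Ttc3 is lower.

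The filter on low counts kept 12448 genes, all 8 named genes among them, but the 4 genes without counts passed it through the shlucif libraries alone and had to differ. The same pattern was found in other genes. Among 11393 genes whose 3 shlucif libraries each held 20 counts or more, 78 (0.685%) had 0 counts in each Arf1-deficient library and 185 (1.62%) had 3 or fewer in each. The converse, 20 counts or more in each Arf1-deficient library and 3 or fewer in each shlucif library, was met by 0 of 10886 genes (0%). Just outside the rule of 0 counts, 25 genes had 1 count over the 6 Arf1-deficient libraries and 19 had 2. By mean shlucif counts among the 78 genes, Klhl22 ranked 19, Klf13 26, Dyrk1a 33 and Vps26c 39.

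Among the 185 genes, 26 were next to another of them in the order of the 11393 genes along the chromosomes, in 12 runs of at most 3 genes. The number expected from the order alone was not computed, so the runs are a description. Vps26c and Dyrk1a formed 1 of these runs, with 43179 bases between them. Klhl22 and Klf13 had no such neighbour. Within 2 Mb of Dyrk1a the only other gene of the 185 besides Vps26c was Runx1, a transcription factor of blood cells, with 33 to 48 counts in shlucif and at most 3 in any Arf1-deficient library.

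Some genes that are not on chromosome 16 had nearly the same profile. By the root mean square difference of log2(CPM + 0.5) over 9 libraries, the closest to Dyrk1a were Hmga2 (0.0858), Slc7a2 (0.0975), Sestd1 (0.117), Flrt2 (0.121) and Rusc2 (0.135). The closest to Vps26c were Rgs1 (0.0631), Serpinb6b (0.0862) and Pmaip1 (0.0992). For Klhl22 they were Pik3cg (0.0534), Skap2 (0.0687) and Cd28 (0.0731), and for Klf13 Gng12 (0.0262), Map3k20 (0.0941) and Ccl4 (0.102). Each of these was at 0 or 1 counts in every Arf1-deficient library. The measure demands this of any gene close to one chosen for its 0 counts there, so the likeness is a description and no test.

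Markers of macrophages or microglia moved in the same libraries. Of 16 such markers 13 passed the filter on low counts and all 13 were lower in Arf1-deficient cells, but they were near 0 there and passed the filter through the shlucif libraries, so this count is a description and no test. Their summed level was 1973, 1838 and 1715 CPM (counts scaled to a common library total) in the shlucif libraries, between 1.60 and 1.86 with shArf1-1 and between 1.57 and 2.33 with shArf1-2. Spp1, a secreted phosphoprotein, was the most abundant of them in the control, with 19663 to 22641 of the 23378 to 27199 summed counts. The marker sum in shlucif thus rests mostly on Spp1. Ctss, a lysosomal protease of macrophages, had 0 counts in every Arf1-deficient library. Of the defining genes, Itgam, C1qb and C1qc also had 0 in every Arf1-deficient library, while C1qa, Aif1 and Cx3cr1 had at most 5 counts in any library. The summed level of the 4 genes without counts was 22.5, 21.7 and 19.2 CPM in the same shlucif libraries. The part of this marker difference in the counts of Dyrk1a, Vps26c, Klhl22 and Klf13 was not tested. Whether the shlucif libraries held RNA of another cell type was not tested either. The shlucif levels and fold bounds of the 4 genes carry this limit, as does every other comparison with shlucif here. In bulk RNA fewer cells of a type and less RNA per cell cannot be told apart. Neuroblastoma and sympathetic neuron markers were present in all libraries, with Tubb3 the most abundant and Nefm at 0 throughout; 10 of 13 tested were higher and 1 was lower in Arf1-deficient cells, against 31.6% higher and 32.9% lower over all tested genes. Their summed level was 1832, 1750 and 1758 CPM in shlucif, between 2797 and 3121 with shArf1-1 and between 2864 and 2953 with shArf1-2. Of the 6 fibroblast markers, Col3a1 was at 0 throughout and Pdgfra was the most abundant, and the sum lay between 14.0 and 15.8 CPM in shlucif, between 9.11 and 10.6 with shArf1-1 and between 10.4 and 11.9 with shArf1-2.

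Sequence shared with other genes was counted next, because shared reads can be split or dropped. Of the 50-base stretches in the annotated transcripts of Dyrk1a, Vps26c and Klhl22, 0 occurred in a transcript of another gene, in either strand. In Klf13 11 of 7476 did, all in Tanc2. Of the genes that overlap Dyrk1a, Vps26c or Klf13 in the annotation, the table holds only E030018B13Rik, on the strand opposite to Klf13, which had 0 counts in every library.

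The neighbours of Dyrk1a were read in all libraries. Ttc3 (ENSMUSG00000040785, chr16:94370618-94469343, plus strand), the AKT ubiquitin ligase, ends 28439 bases before Vps26c and had 1985, 2104 and 2033 counts in shlucif, or 8.88, 9.69 and 9.20 FPKM. Its FPKM was 6.83, 6.53 and 7.46 with shArf1-1 and 8.45, 8.29 and 7.68 with shArf1-2. All 6 Arf1-deficient libraries lay below all 3 controls, with the shArf1-1 libraries lowest. The fold change was -0.36 ± 0.07 on the log2 scale (SE, n = 6 and 3), with a Benjamini-Hochberg adjusted p of 0.000171 from the edgeR quasi-likelihood test.

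Pigp (ENSMUSG00000022940, chr16:94358763-94371842, minus strand), the GPI anchor subunit, had 8.80, 8.01 and 9.93 FPKM in shlucif. It had 11.7, 12.2 and 12.4 FPKM with shArf1-1 and 13.2, 14.3 and 13.0 with shArf1-2. Every Arf1-deficient library was above every control, by a log2 fold change of 0.46 ± 0.10 (SE, n = 6 and 3) and a Benjamini-Hochberg adjusted p of 0.000344 from the edgeR quasi-likelihood test. Pigp lies on the strand opposite to Ttc3 and their annotated ends overlap, so reads in the overlap cannot be told apart without strand. Of the 50-base stretches of Pigp 32.0% occur in other genes, among them Ttc3 and the pseudogene Gm15310, which lies on the same strand as Pigp.

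Hlcs (ENSMUSG00000040820, chr16:94128882-94313571, minus strand), the biotin ligase, had 3.54, 3.28 and 2.61 FPKM in shlucif. With shArf1-1 it had 5.95, 6.07 and 5.58 FPKM and with shArf1-2 6.06, 5.89 and 5.43. The groups did not overlap, and Hlcs had the largest change of the 4 neighbours (all 6 libraries higher), 0.83 ± 0.09 on the log2 scale (SE, n = 6 and 3), with a Benjamini-Hochberg adjusted p of 1.52e-07 from the edgeR quasi-likelihood test. Morc3 (ENSMUSG00000039456, chr16:93832121-93876073, plus strand), the nuclear ATPase, had a mean of 15.5 ± 0.205 FPKM (SD, n = 3) in shlucif. It had 14.6, 14.6 and 14.4 FPKM with shArf1-1 and 14.5, 15.5 and 16.2 with shArf1-2. The shArf1-1 libraries lay below the controls and the shArf1-2 libraries spread on both sides of them. Its log2 fold change of -0.11 ± 0.06 (SE, n = 6 and 3; 4 of 6 libraries below all controls) had a Benjamini-Hochberg adjusted p of 0.0932 from the edgeR quasi-likelihood test.

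So 3 of 4 neighbours passed the threshold of an adjusted p under 0.05, Hlcs and Pigp higher and Ttc3 lower. Over all tested genes 64.5% passed it, 31.6% higher and 32.9% lower, a background that makes 3 of 4 no result about these genes in particular. Groups that did not overlap in FPKM, as for these 3, were found in 59.2% of tested genes.

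Each hairpin was also set against shlucif, in comparisons that share the control libraries and that passed for 67.5% of tested genes with shArf1-1 and 63.4% with shArf1-2. The log2 fold change of Ttc3 was -0.47 ± 0.06 (SE) with shArf1-1 and -0.26 ± 0.06 with shArf1-2. For Pigp it was 0.39 ± 0.10 and 0.53 ± 0.10, and for Hlcs 0.84 ± 0.09 and 0.81 ± 0.09. For Morc3 it was -0.15 ± 0.06 and -0.08 ± 0.06, and with shArf1-1 alone Morc3 passed, with a Benjamini-Hochberg adjusted p of 0.0412 from the edgeR quasi-likelihood test. The hairpins themselves differed in 14.4% of tested genes, 1798 in all, a count that fell to 1159 without shArf1-1 replicate 1 and to 1194 without shArf1-2 replicate 1. Among the neighbours only Ttc3 differed between them, by 0.21 ± 0.06 (log2, SE, shArf1-2 minus shArf1-1) with a Benjamini-Hochberg adjusted p of 0.0152 from the edgeR quasi-likelihood test. For Pigp, Hlcs and Morc3 the differences of 0.14 ± 0.10, -0.03 ± 0.08 and 0.06 ± 0.06 did not pass.

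From Morc3 to Kcnj6, the first tested gene beyond Dyrk1a, the stretch held 10 tested genes. Kcnj6, a potassium channel gene 53118 bases beyond Dyrk1a, had 12 to 18 counts in shlucif and 16 to 30 in Arf1-deficient libraries, so reads were found on both sides of the pair at 0. Ripply3, between Hlcs and Pigp, had 62 to 79 counts in shlucif and 43 to 101 in the others. Chaf1b, a histone chaperone subunit beside Morc3, had 1305 to 1309 counts in shlucif and 1011 to 1564 in the others. Cldn14, a claudin, had 4 to 14 counts in shlucif and 9 to 23 in the others. Kcnj6, Ripply3, Chaf1b and Cldn14 did not pass the threshold, although Chaf1b passed with shArf1-2 alone (log2 fold change -0.44) and as the average of both hairpin contrasts (-0.21), and was at 0.01 with shArf1-1.

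**Figure D2:**
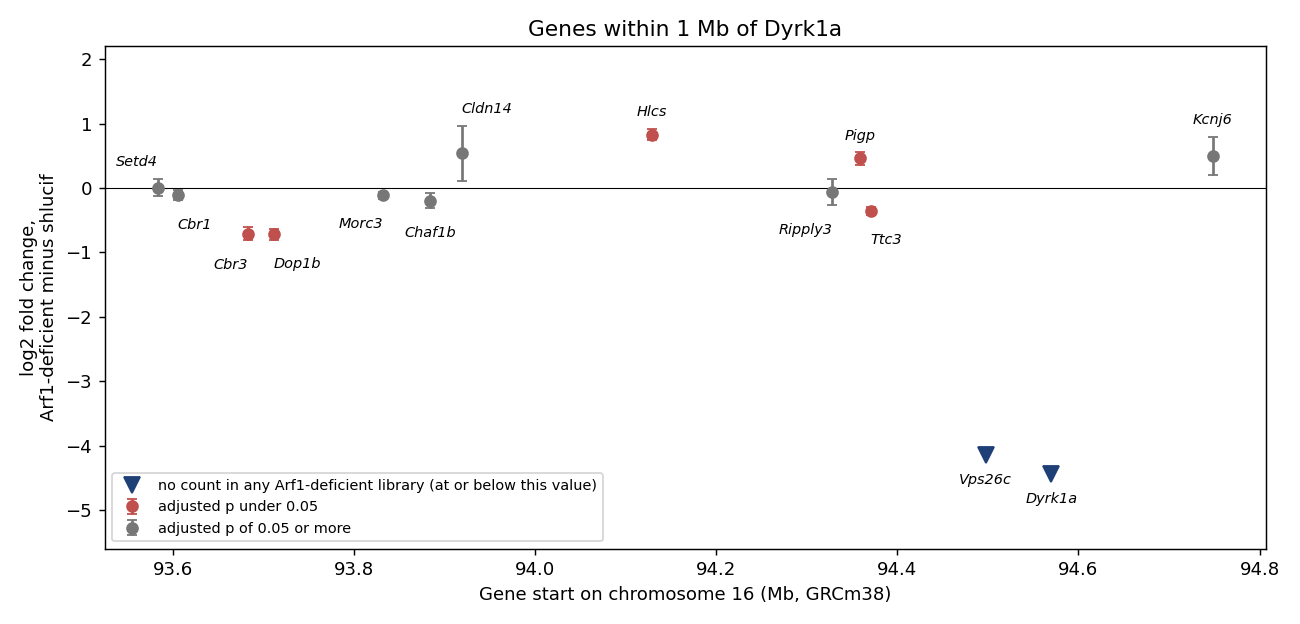
Log2 fold change ± SE, Arf1-deficient minus shlucif, of the tested genes within 1 Mb of Dyrk1a, by gene start in Mb on chromosome 16 (GRCm38). Triangles mark Vps26c and Dyrk1a, which had 0 counts in Arf1-deficient libraries and lie at or below the value drawn; genes on both sides, Ttc3 and Kcnj6, were read in every library.

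Klhl22 lies between Med15, a Mediator subunit, and Scarf2, a scavenger receptor family gene, which were read in every library. Ccdc74a, beyond Med15, had 10 to 34 counts over all libraries and did not pass. Med15 had 1369 to 1412 counts in shlucif and 1010 to 1272 in the others, and Scarf2 had 551 to 587 and 338 to 472. Both were lower, with log2 fold changes of -0.33 ± 0.06 and -0.54 ± 0.11 (SE, n = 6 and 3), and Dgcr2 beyond Scarf2 was higher, by 0.49 ± 0.07. Around Klf13, Chrna7, a nicotinic receptor subunit, was higher by 1.21 ± 0.18. Mkrn3, an imprinted gene 1466211 bases from Klf13, had a log2 fold change of -0.67 ± 0.12. On the other side Mtmr10 had 68 to 106 counts in shlucif and 70 to 96 in the others, Fan1 had 83 to 133 and 102 to 142, and neither passed. The tested genes nearest to Klf13 were Chrna7, 673781 bases away, and Mtmr10, 348737 bases away, against 26726 bases for Med15 and 3899 for Scarf2 beside Klhl22.

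Within 1 Mb of Dyrk1a, Klhl22 or Klf13, 56 other genes were tested, of which 14 were higher and 12 lower. That is 46.4% past the threshold, against 64.5% over all tested genes, with a median log2 fold change of -0.00 against 0.00. Around Dyrk1a 2 of 12 were higher and 3 lower, around Klhl22 10 of 38 were higher and 9 lower, and around Klf13 2 of 6 were higher and 0 lower.

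Partners and relatives of the 8 genes were taken from 8 lists of 98 genes, of which 87 were tested, 20 higher and 29 lower. That is 56.3% past the threshold, with a median log2 fold change of -0.07, against 64.5% (31.6% higher and 32.9% lower) and a median of 0.00 over all tested genes, the background for each list. The list that goes with Vps26c holds the Commander complex, the retriever and partners, among them retromer and Washc genes. In it 2 of 22 were higher and 6 lower, with a median log2 fold change of -0.09. Of the 24 genes listed, Ccdc22 had 0 counts in every library, shlucif among them, and Commd5 had too few to be tested. The lower genes were Vps35, Washc1, Washc2, Washc4, Commd2 and Ccdc93, and the higher genes were Commd9 and Washc5. The largest changes of this list were Vps35 of the retromer at -0.53 ± 0.06 and Commd9 at 0.69 ± 0.10 (log2, SE). The Vps26c paralogs Vps26a and Vps26b had 703 to 1169 and 982 to 1393 counts in Arf1-deficient libraries and did not pass, except Vps26a in 1 of 20 alternatives, without shArf1-1 replicate 3. In the DYRK list 3 of 19 were higher and 6 lower, with a median of -0.12. Dyrk1b, the closest relative of Dyrk1a, had 336, 352 and 348 counts in shlucif, 103 to 135 with shArf1-1 and 142 to 176 with shArf1-2, a log2 fold change of -1.39 ± 0.11 (SE). Dyrk2, Dyrk3 and Dyrk4 were read in every library and did not pass, although Dyrk3 passed with shArf1-1 alone (log2 fold change 0.27, Benjamini-Hochberg adjusted p of 0.04997 from the edgeR quasi-likelihood test) and was at -0.26 with shArf1-2. Lin9 of the DREAM complex was higher by 0.50 ± 0.10, while Lin52 and Lin37 of the same complex were lower, at -0.63 ± 0.12 and -0.38 ± 0.09. Nfatc1, a calcineurin-dependent factor, had 31 to 46 counts in shlucif and at most 2 in the others, and the median is the same with this gene at its bound. It passed the filter through the shlucif libraries alone and had to be lower, and it is 1 of the 6 lower genes of its list and of the 29 lower genes of all lists.

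In the list of the KLHL22 ligase and GATOR1, 7 of 11 were higher and 2 lower, with a median log2 fold change of 0.32, against 31.6% higher, 32.9% lower and a median of 0.00 over all tested genes. Keap1, another CUL3 adaptor, was higher by 0.74 ± 0.08 and the GATOR1 subunit Nprl2 was lower, at -0.49 ± 0.12. The other GATOR1 subunits, Depdc5 and Nprl3, named after their values were seen, were higher by 0.44 ± 0.07 and 0.37 ± 0.07. Of the listed relatives of Klhl22, Klhl21 was higher by 0.41 ± 0.08, Klhl9 was lower, at -0.32 ± 0.09, and Klhl12 did not pass, except in 3 of 20 alternatives (shArf1-1 alone among them, log2 fold change -0.23), while Klhl13 had too few counts to be tested. In the KLF and SP list 1 of 16 was higher and 7 lower, with a median of -0.13. It had Klf6 at -0.87 ± 0.07, Klf3 at 0.30 ± 0.08 and the Klf13 relatives Klf9 and Klf10 at -0.43 ± 0.12 and -0.47 ± 0.07. Klf11 and Klf16 did not pass, Klf16 except in 3 of 20 alternatives, and Klf14 had 0 counts in all libraries.

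Of the genes that go with the neighbours, 2 of 5 GPI-GlcNAc transferase genes were higher and 2 lower, with a median of -0.01 and with Pigh at 0.93 ± 0.24 and Pigc at -0.59 ± 0.14. Of 9 biotin-dependent carboxylases and biotin handling genes 3 were higher and 4 lower, with a median of -0.08 and with Acaca, the HLCS substrate that makes malonyl-CoA, at 0.67 ± 0.06 and Mccc1 at -0.77 ± 0.12. Of the MORC genes 1 of 2 was higher, Morc2a at 0.85 ± 0.06, with a median of 0.57. Of the AKT kinases that TTC3 acts on, Akt1 was higher by 0.14 ± 0.06, a call lost in 11 of 20 alternative settings, and Akt2 was lower, at -0.25 ± 0.05.

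Promoter sequence was looked at as a feature the choice of genes did not use. All 8 genes had an entry in RefSeq (GRCm38.p6). In the 250 bases before the most upstream start in the table of promoters, which for some genes lies inside the annotated gene, GC boxes, spelled GGGCGG or CCGCCC for the other strand and counted with overlaps, were found in each of the 8 genes, against 33.0% of all promoters of that length. Dyrk1a and Klf13 had 3 matches, Klhl22 had 2 and the others had 1. A match is a description of the letters and not a site. Dyrk1a had 43 CG dinucleotides, Vps26c 27, Klf13 24 and Klhl22 13, against a median of 6 over all promoters. The neighbours were at a like level, with 27 in Ttc3 and in Pigp, 23 in Hlcs and 17 in Morc3. Both backgrounds are over 27025 promoters, 1 per gene, and were not limited to the tested genes. The same values among tested genes were not taken, so the GC boxes and CG dinucleotides are no result about these 8 genes in particular. The windows of Klhl22 (chr16:17759371-17759620, plus strand) and Klf13 (chr7:63938916-63939165, minus strand) are printed, since they belong to genes at 0 and lie before the annotated genes apart from 3 bases of Klhl22; capitals mark the GC boxes.
Klhl22: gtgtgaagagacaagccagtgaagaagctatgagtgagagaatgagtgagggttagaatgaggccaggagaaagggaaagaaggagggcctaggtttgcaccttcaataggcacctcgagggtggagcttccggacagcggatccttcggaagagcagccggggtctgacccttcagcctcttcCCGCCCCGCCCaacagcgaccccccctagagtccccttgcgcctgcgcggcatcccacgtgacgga
Klf13: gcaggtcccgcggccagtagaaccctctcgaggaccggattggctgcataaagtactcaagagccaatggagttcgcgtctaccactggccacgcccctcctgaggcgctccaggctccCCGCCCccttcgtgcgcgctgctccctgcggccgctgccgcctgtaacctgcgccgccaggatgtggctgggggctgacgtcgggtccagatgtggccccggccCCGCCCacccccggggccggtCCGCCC
The windows of Dyrk1a and Vps26c are not printed, because 250 and 201 of their bases lie inside GENCODE exons or the RefSeq span of these genes.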

How the data were processed

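The authors deposited a table of whole-number read counts per gene and of FPKM values for 9 poly(A)-selected libraries; columns named shArf2 were read as shArf1-2. The FPKM values equal the deposited count divided by gene length and library total. The submitters' processing notes name mm10; the aligner, counter and use of strand are not given in the sources used here. Starts in the table mostly differ from GRCm38, so positions are those of GENCODE M21 by gene identifier. Counts were compared with edgeR 4.0.16 in R 4.3.3 (filterByExpr, TMM, robust quasi-likelihood fits of 2 and of 3 groups; significance at an adjusted p under 0.05, Benjamini-Hochberg over the whole table). The SE is the size of the log2 fold change over the root of F. The edgeR steps were tested on simulated data with few changed genes, as many up as down. That test does not cover changes as broad as these. Alternatives used limma 3.58.1, DESeq2 1.42.0, other scalings, filters, windows and floors. Members and lists were chosen with earlier results of these data known. Named genes are the members, the genes most like those at 0, flanking genes, and per list the largest change each way and the paralogs. Runx1, single markers, overlapping genes, Depdc5, Nprl3, Lin52, Lin37 and the other called genes and the untested genes of the Commander list are named besides. Those named besides are not among the 45 genes followed under the alternatives.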

Additional observations from a re-analysis of the deposited data

Results flagged for a closer look

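Some results differed between the hairpins, in the edgeR quasi-likelihood test (Benjamini-Hochberg adjusted p) of shArf1-2 minus shArf1-1 on the log2 scale, 3 libraries each. Among the neighbours of Dyrk1a this was Ttc3, at 0.21 ± 0.06 (SE, edgeR adjusted p 0.0152). Arf1 itself differed by 0.34 ± 0.05 (adjusted p 1.16e-05 from edgeR), with all 3 shArf1-2 libraries above the shArf1-1 libraries in FPKM. On chromosome 16, Chaf1b differed by -0.45 ± 0.06 and Ripply3 by 0.58 ± 0.20. On the chromosome of Klf13, Mkrn3, 1466211 bases from it, differed by 0.48 ± 0.10 and the nearer Chrna7 by -0.56 ± 0.11. The Dyrk1a paralog Dyrk3 differed by -0.52 ± 0.12. The cause of these differences was not tested.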

How the results depend on the processing

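Of 45 named genes, 38 kept their direction under every alternative that gave them a value (20, or 19 for Cldn14 and Nfatc1, which a filter of at least 10 counts removed) and 33 also their side of the threshold; the 7 that reversed somewhere did not pass the threshold in the report. Library size scaling moved the median log2 fold change of all genes to 0.07 and the counts past the threshold from 3933 higher and 4094 lower to 4556 and 3625.

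Arf1-deficient against shlucif gave 8027 genes, 7256 to 8122 with 1 library left out and 7808 with the replicate block. With shArf1-1 it was 7894 to 8511 and with shArf1-2 7315 to 8200. The count between the hairpins, 1798, ranged from 1159 without shArf1-1 replicate 1 to 1977 without shArf1-1 replicate 2, was 1194 without shArf1-2 replicate 1 and 1809 with the replicate block; the cause was not tested. Over 9 pairs of libraries with equal replicate numbers, the correlation of residuals had a mean of 0.007 (-0.082 to 0.094), so no shared effect of the number was seen. Whether libraries with equal numbers were handled together cannot be told from this. The neighbours past the threshold stayed at 3 in all settings but shArf1-1 alone, which gave 4.

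By construction, windows of 0.5 and 2 Mb held 16 and 45 genes past the threshold in place of 26 (22 to 27 with 1 library left out). Partner genes past it numbered 43 to 49 with 1 library left out. A floor of 10 counts lowered the bounds to 6.52 for Dyrk1a, 5.30 for Vps26c, 9.09 for Klhl22 and 7.51 for Klf13. With 1 library left out they were 19.4 to 24.7, 17.0 to 18.4, 28.9 to 32.5 and 24.3 to 26.1. The 185 genes near 0 in Arf1-deficient libraries (185 to 198 with 1 library left out) were 78 at 0 counts, 280 at up to 10 counts and 45 with at least 100 counts in each shlucif library.

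These log2 fold changes, none past the threshold in the report, changed sign, and the cause was not tested. Chaf1b was 0.0124 with shArf1-1 alone. Ripply3 was 0.000764 with library size scaling, 0.195 with shArf1-2 alone and -0.172 to 0.00641 with 1 library left out (the highest without shArf1-1 replicate 2). Mtmr10 was -0.253 to 0.0826 (the highest without shlucif replicate 1) and Fan1 -0.0533 (without shlucif replicate 3) to 0.300. Dyrk2 was -0.00857 with DESeq2, -0.00786 with at least 10 counts, -0.0061 with upper quartile scaling, -0.0725 with shArf1-1 alone and -0.0518 (without shlucif replicate 1) to 0.0380 with 1 library left out. Dyrk3 was -0.257 with shArf1-2 alone and -0.0369 (without shArf1-1 replicate 1) to 0.122 with 1 library left out, and Dyrk4 was 0.137 and -0.245 to 0.0286 (without shlucif replicate 1).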
